A study of Homo sapiens with 2 samples.

Results

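Levels of 10 genes of ferritin and cellular iron handling were compared between MDA-MB-231 cells over-expressing YWHAB and vector control cells of the same line. MDA-MB-231 is a human triple-negative breast cancer line, and YWHAB encodes an adaptor protein of the 14-3-3 family. The genes, taken by name from the 60774 identifiers in the table, were FTL, FTH1, TFRC, SLC40A1, HMOX1, SLC11A2, NCOA4, IREB2, ACO1 and SLC39A14. All 10 were found. All 10 also passed the filter of a mean of at least 1 FPKM (fragments scaled to transcript length and to library size), as did 13420 genes in all. There was 1 RNA-seq library from YWHAB over-expressing cells and 1 from vector control cells, called the YWHAB library and the vector library here. The type of vector, and whether the cells were a clone or a pool, are not stated in the sources used here. The labels of both groups carry the same text on insulin, dexamethasone and isobutylmethylxanthine and on harvested retinas, and whether it applies to these cells was not tested. With 1 library per group no test of the conditions was possible. The intervals below cover counting error only.

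Cells take up iron bound to transferrin through the transferrin receptor, move it across membranes with metal transporters, store the surplus inside the ferritin shell and export it through ferroportin. Ferritin is built from a light chain, FTL, which helps the iron core form, and a heavy chain, FTH1, which oxidises iron. The iron regulatory proteins, encoded by ACO1 and IREB2, bind a hairpin called the iron-responsive element when iron is scarce. Binding in a 5′ UTR blocks translation, and binding in the 3′ UTR of TFRC protects the transcript from decay. Transcription of FTL, FTH1, SLC40A1 and HMOX1 is also known to be driven by NRF2 and held back by BACH1, a repressor that heme releases. Protein synthesis and iron itself were not measured here.

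The elements are shown because the iron regulatory proteins bind hairpins of this kind. They were read from the GENCODE 29 transcripts (GRCh38) as a bulged C, 5 stem bases, the loop CAGTGN and 5 bases that pair with the stem (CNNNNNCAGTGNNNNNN, sense strand only, G-T pairs allowed). Capitals mark the loop of 6 bases, and each site is given with a few flanking bases, as transcribed and with T for U. The single sites of FTL (chr19:48965335-48965364, plus strand), FTH1 (chr11:61967573-61967602, minus strand) and SLC40A1 (chr2:189580660-189580689, minus strand) lay in the 5′ UTR. The 4 sites of TFRC lay in the 3′ UTR on the minus strand of chromosome 3, in transcript order at chr3:196050978-196051007, chr3:196050574-196050603, chr3:196050509-196050538 and chr3:196050462-196050491.
FTL: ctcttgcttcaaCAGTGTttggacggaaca
FTH1: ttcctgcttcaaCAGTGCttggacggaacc
SLC40A1: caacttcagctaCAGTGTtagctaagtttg
TFRC, site 1: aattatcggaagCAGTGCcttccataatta
TFRC, site 2: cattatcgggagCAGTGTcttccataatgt
TFRC, site 3: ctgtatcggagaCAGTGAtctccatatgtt
TFRC, site 4: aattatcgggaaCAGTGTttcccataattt

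Of 19893 protein-coding genes searched, 1.99% held these letters in any transcript, 0.186% in a 5′ UTR and 0.819% in a 3′ UTR. A match in letters does not show binding, which was not measured here. SLC39A14 also matched, but not in a UTR. No match was found in SLC11A2, HMOX1, NCOA4, IREB2 or ACO1, which says only that these strict letters are absent from the annotated transcripts. SLC11A2 is known to carry an element with an extra bulge in the 3′ UTR of some of its isoforms.

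Of the 10 genes the ferritin light chain, FTL, was the 1 that was 2-fold lower in the YWHAB library, and 0 were 2-fold higher. FTL was at 0.418 of its level in the vector library and HMOX1 at 0.502, while IREB2 was at 1.34 times its level. By the rule of a difference of at least 1 in log2(FPKM + 1) in either direction, called 2-fold here, 1 of the 10 genes (FTL) was past the rule. Of all 13420 genes 1.97% were 2-fold lower and 0.686% higher, together 2.66%. At 1.5-fold, 3 of the 10 were lower (FTL, HMOX1 and FTH1) and 0 higher, against 6.57% lower and 4.92% higher among all genes. Those shares are over all lengths, while these 3 genes, at 871, 906 and 773 nt, are all short. They fall in the shortest of 5 length classes of protein-coding genes (207 to 1094 nt), as does SLC40A1 (1010 nt). The median difference was -0.06 in that class and 0.12 in the longest. Corrected for length and GC content, the differences of FTL, HMOX1 and FTH1 were -1.24, -0.97 and -0.71. The median difference of the 10 genes was -0.16, and that of all genes was 0.03. The counting interval lay below equal levels for 4 of the 10 genes (21.8% of all genes), above for 3 (27.8% of all genes) and held equal levels for 3. Among the last 3 is SLC11A2, whose interval rests on a chosen length. Counting intervals are narrow for abundant genes and exclude equal levels for 49.7% of all genes, so they say little about the conditions.

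**Figure D1:**
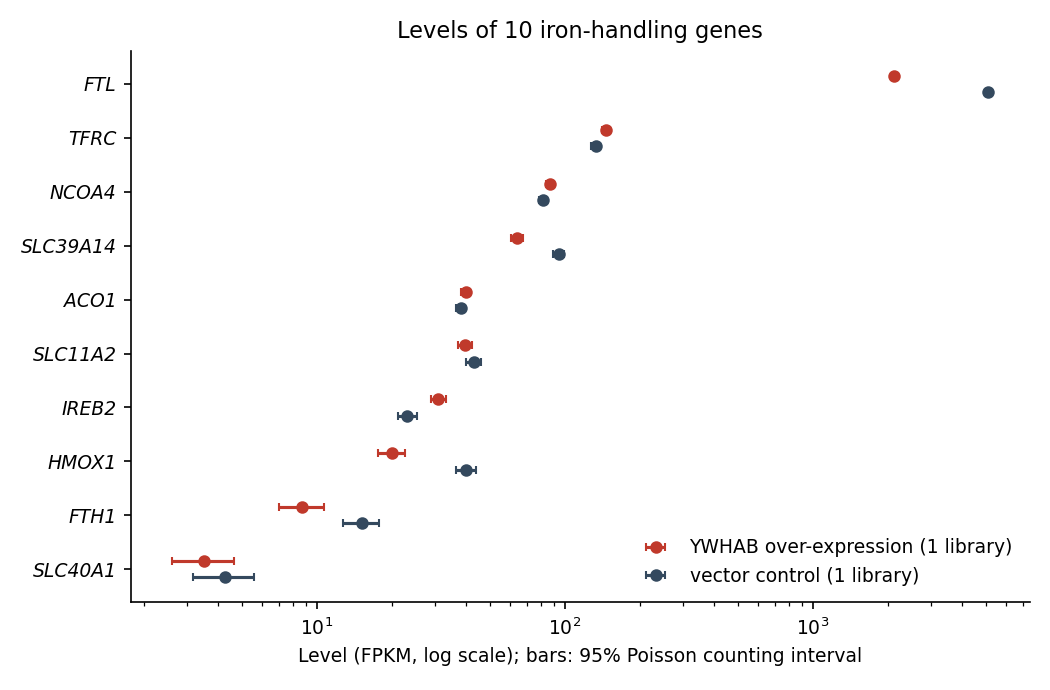
Level of each of the 10 genes in FPKM on a log axis, with the YWHAB library in red above the vector library in blue; bars are 95% Poisson counting intervals. FTL, at 2123 FPKM in the YWHAB library and 5080.4 FPKM in the vector library, sits more than a decade above every other gene.

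FTL (ENSG00000087086, chromosome 19 from 48965301 to 48966878, plus strand) was at 2123 FPKM in the YWHAB library and 5080.4 FPKM in the vector library. These levels rest on 25541 and 54764 fragments. That was 0.185% of the fragment total behind the FPKM values of the YWHAB library (95% exact interval 0.183 to 0.187%). In the vector library it was 0.443% (0.439 to 0.446%). The ratio was 0.418 (counting interval 0.412 to 0.424), a difference of -1.26. FTL was the 155th lowest difference among the 13420 genes, and 1.15% of genes were as low or lower. By mean level it was the 9th most abundant gene of all. Among the 76 genes whose mean reached 1000 FPKM, 5 were 2-fold lower and 0 were 2-fold higher, and FTL was the 5th lowest. The values do not separate a smaller amount of FTL transcript in every cell from fewer cells with a high amount, since the RNA is from whole cultures.

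The length behind the FTL values was 871 nt, which puts it in the first of 5 equal-sized length classes of protein-coding genes (207 to 1094 nt). There the median difference was -0.06, and 66 of 2305 genes were 2-fold lower, against a median of 0.12 and 11 of 2300 genes in the longest class. Corrected for length and GC content, its difference was -1.24. Of its 50-base words 18.3% also occur in another gene, chiefly the processed pseudogene FTLP3. FTLP3 was at 4.11 FPKM in the YWHAB library and 9.49 FPKM in the vector library, with a ratio of 0.434 (counting interval 0.271 to 0.681) from 30 and 62 fragments. With the fragments of all 16 annotated FTL pseudogenes added the FTL difference stayed at -1.26.

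FTH1 (ENSG00000167996, chromosome 11 from 61959718 to 61967660, minus strand) was listed far below the light chain, at 8.71 FPKM in the YWHAB library and 15.2 FPKM in the vector library. From 93 and 145 fragments, its ratio was 0.575 (counting interval 0.438 to 0.751) and its difference -0.73, with 4.14% of all genes as low or lower. These levels cannot be read as the abundance of the heavy chain. Exons of BEST1 on the opposite strand cover 62.4% of the FTH1 exon bases and 60.6% of its coding bases, and 19.9% of its 50-base words occur in 16 other genes. How fragments on overlapping genes or with several matches were counted is not stated in the sources used here. BEST1 itself was at 0.0302 FPKM in the YWHAB library and 0.539 FPKM in the vector library.

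Genes with nearly all of their coding bases covered by other genes were often listed at 0. Of 823 protein-coding genes with at least 95% of their coding bases covered by exons of other genes, 68.2% were listed at 0 in both libraries, against 21.0% of the 14418 genes with none covered. PCBP1, an iron chaperone of most cells, was chosen once its level was known and has 48.9% of its coding bases covered. It was listed at 0.0828 FPKM in the YWHAB library and 0.0462 FPKM in the vector library. FTH1 and PCBP1 lie between these classes, and genes covered in part were not examined as a class. The part of the overlap in the FTH1 values was not tested. Of 25 annotated FTH1 pseudogenes 11 had any fragment, with 108 fragments in the YWHAB library and 138 in the vector library in all. The most abundant were FTH1P8 at 4.51 and 8.17 FPKM in the YWHAB and vector libraries, FTH1P2 at 4.39 and 6.47 FPKM, and FTH1P7 at 4.33 and 3.51 FPKM. With these fragments added to those of FTH1 the difference was -0.63. The mitochondrial ferritin FTMT and the testis gene FTHL17, the other members of the family, were listed at 0 in both libraries.

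**Figure D2:**
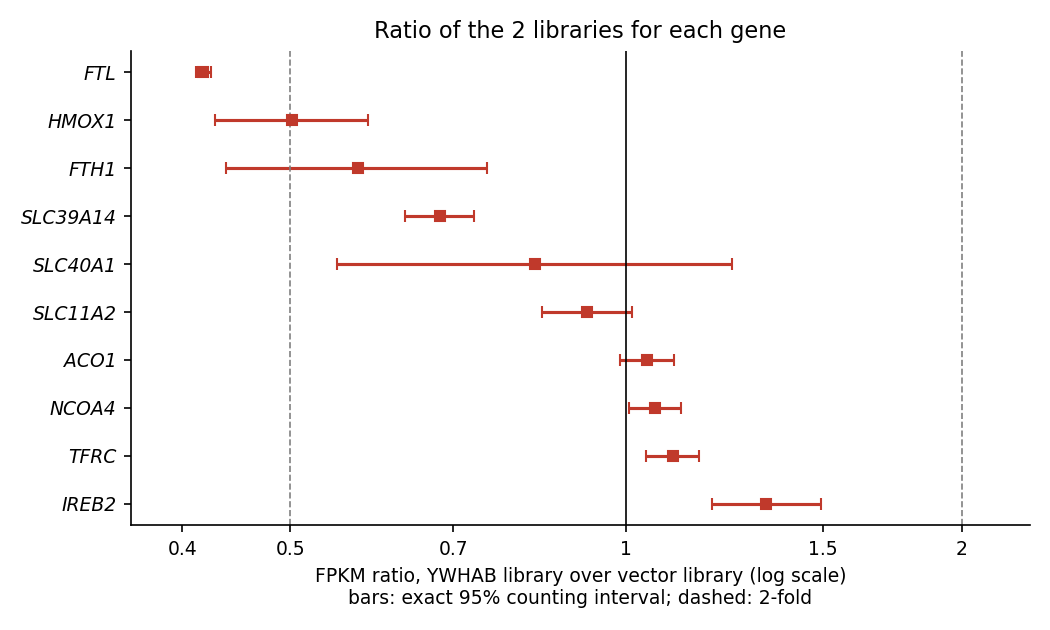
Ratio of FPKM in the YWHAB library over the vector library for each of the 10 genes on a log axis, with exact 95% counting intervals; the solid line marks equal levels and the dashed lines 2-fold. FTL is the 1 gene whose whole interval (0.412 to 0.424) lies beyond 2-fold, and the widest interval is that of SLC40A1 (0.550 to 1.25).

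Among the uptake genes, the transferrin receptor and the endosomal exporter SLC11A2 differed little between the libraries, and the zinc and iron importer SLC39A14 was lower in the YWHAB library. TFRC (ENSG00000072274, chromosome 3 from 196027183 to 196082189, minus strand) was at 146 FPKM in the YWHAB library and 133 FPKM in the vector library. From 2913 and 2372 fragments, its ratio was 1.10 (counting interval 1.04 to 1.16), and 36.6% of all genes had a difference as high or higher. The level of FTL was 14.5 times that of TFRC in the YWHAB library and 38.2 times in the vector library. This ratio within a library does not depend on how the libraries are scaled. It was lower in the YWHAB library by a factor of 0.380 (95% counting interval 0.359 to 0.402).

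SLC11A2 (ENSG00000110911, chromosome 12 from 50979401 to 51028566, minus strand), also called DMT1, carries iron out of endosomes. It was at 39.5 FPKM in the YWHAB library and 42.8 FPKM in the vector library, with a ratio of 0.923 (counting interval 0.841 to 1.01). No difference was detectable beyond counting error at the length used. That length, 1716 nt, was chosen among multiples of 572 nt. The width of the interval, whose upper end lies close to equal levels, depends on this choice. Its isoforms with and without the iron-responsive element are summed in these values. SLC39A14 (ENSG00000104635, chromosome 8 from 22367249 to 22434129, plus strand), also called ZIP14, was at 64.2 FPKM in the YWHAB library and 94.2 FPKM in the vector library. From 1344 and 1769 fragments, its ratio was 0.681 (counting interval 0.634 to 0.731), and 7.55% of all genes were as low or lower. Its difference of -0.55 missed the 1.5-fold rule, which it passed (-0.59) with the median ratio of the libraries set to 0. The level of SLC39A14 was 1.62 times that of SLC11A2 in the YWHAB library and 2.20 times in the vector library, a factor of 0.738 between the libraries (0.657 to 0.828).

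The exporter was the least abundant of the 10 genes in both libraries. SLC40A1 (ENSG00000138449, chromosome 2 from 189560579 to 189583758, minus strand), which encodes ferroportin, the known exporter of iron from cells, was at 3.51 FPKM in the YWHAB library and 4.24 FPKM in the vector library. With 49 and 53 fragments the ratio of 0.828 had a counting interval of 0.550 to 1.25, so no difference was detectable at this depth. The ferroxidases that work with it were lower still. Ceruloplasmin (CP) had 3 fragments in the YWHAB library and 8 in the vector library, and HEPH and HEPHL1 each had 0 and 1.

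The sensors of cellular iron were at similar levels or slightly higher in the YWHAB library. IREB2 (ENSG00000136381, chromosome 15 from 78437431 to 78501456, plus strand) encodes iron regulatory protein 2, whose protein is degraded when iron is plentiful. It was at 30.9 FPKM in the YWHAB library and 23.1 FPKM in the vector library. Its ratio of 1.34 (counting interval 1.19 to 1.496) was the highest of the 10 genes, and 12.6% of all genes had a difference as high or higher. ACO1 (ENSG00000122729, chromosome 9 from 32384603 to 32454769, plus strand) encodes iron regulatory protein 1, which is a cytosolic aconitase when it holds an iron-sulfur cluster. It was at 39.7 FPKM in the YWHAB library and 38.0 FPKM in the vector library. The ratio was 1.04 (0.987 to 1.10), and the sign of its difference of 0.06 turned to -0.04 after length and GC correction. The level of IREB2 was 0.777 of that of ACO1 in the YWHAB library and 0.608 in the vector library, a factor of 1.28 between the libraries (1.13 to 1.45).

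NCOA4 (ENSG00000266412, chromosome 10 from 46005088 to 46030714, minus strand), the receptor that delivers ferritin to autophagosomes for breakdown, was at 86.8 FPKM in the YWHAB library and 81.7 FPKM in the vector library. The ratio was 1.06 (counting interval 1.01 to 1.12), a difference of 0.09. Of its 50-base words 4.53% occur in the pseudogenes NCOA4P3 and NCOA4P4. The level of FTL was 24.5 times that of NCOA4 in the YWHAB library and 62.2 times in the vector library.

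HMOX1 (ENSG00000100292, chromosome 22 from 35380361 to 35394214, plus strand), the inducible enzyme that opens heme and frees its iron, was at 20.1 FPKM in the YWHAB library and 40.0 FPKM in the vector library. From 251 and 448 fragments, its ratio was 0.502 (counting interval 0.428 to 0.587). Its difference of -0.96 was just short of the 2-fold rule, also under the alternatives run (-0.998 with the median ratio of the libraries set to 0, -0.93 with equal totals), and 2.21% of all genes were as low or lower. The constitutive enzyme HMOX2, chosen once its level was known, stood at 59.2 FPKM in the YWHAB library and 58.7 FPKM in the vector library.

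**Figure D3:**
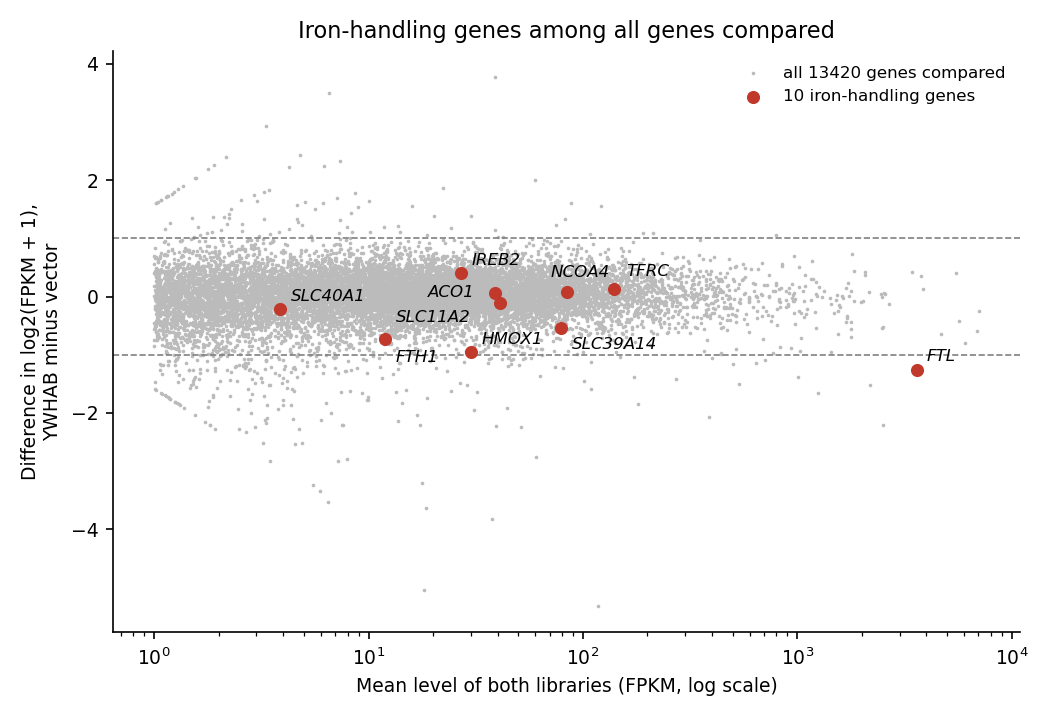
Difference in log2(FPKM + 1), YWHAB minus vector, against the mean level of both libraries on a log axis, for all 13420 genes compared (grey) and the 10 iron-handling genes (red); dashed lines mark 2-fold. FTL lies below the lower line at the far right, HMOX1 (-0.96) just above it, and the other 8 genes lie within the cloud.

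In the YWHAB library the order of levels ran FTL, TFRC, NCOA4, SLC39A14, ACO1, SLC11A2, IREB2, HMOX1, FTH1 and SLC40A1. Of these neighbours ACO1 (39.7 FPKM, Poisson interval 38.2 to 41.3) and SLC11A2 (39.5 FPKM, 37.0 to 42.1) did not differ beyond counting error. In the vector library SLC39A14 stood above NCOA4 and HMOX1 above ACO1. There the intervals of HMOX1 (36.3 to 43.8 FPKM) overlapped those of both SLC11A2 (40.1 to 45.7 FPKM) and ACO1 (36.5 to 39.6 FPKM). The order depends on the gene length in the FPKM, which follows the mean of the annotated transcripts. Per kilobase of all annotated exon bases, an alternative chosen after seeing the data, FTL stayed first and SLC40A1 last in the YWHAB library, but NCOA4 (54.1) stood above TFRC (26.7) and ACO1 (25.7).

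Of 120 other genes on the iron and heme lists 98 were compared, of which 1 was 2-fold lower and 0 higher, and their median difference was -0.06. The share of 2-fold lower genes among all genes was 1.97%. The 1 gene past the rule was LCN2, lipocalin 2, a secreted protein that binds iron-loaded siderophores, at 18.1 FPKM in the YWHAB library and 70.8 FPKM in the vector library (ratio 0.255, counting interval 0.214 to 0.303). The lists were chosen with earlier results of these data known, so their counts describe these libraries only.

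Among 13 uptake and transfer genes compared, the median difference was -0.13, and -0.27 when corrected for length and GC content. After LCN2 and SLC39A14, STEAP1 and the ferric reductase CYBRD1 differed most. CYBRD1 was at 55.4 FPKM in the YWHAB library and 77.4 FPKM in the vector library, and STEAP1 at 11.5 and 14.97 FPKM. Of 4 genes compared around hepcidin, the liver hormone that degrades ferroportin, 0 were 2-fold different and hepcidin itself (HAMP) was listed at 0. BMP2 was at 0.837 FPKM in the YWHAB library and 1.66 FPKM in the vector library, HFE at 11.96 and 9.83 FPKM, NEO1 at 16.3 and 14.9 FPKM and ERFE at 8.02 and 7.75 FPKM. In 7 genes of iron chaperones and ferritin turnover 0 passed the rule and the median was 0.09. HERC2, a ubiquitin ligase that acts on NCOA4, was at 56.7 FPKM in the YWHAB library and 32.2 FPKM in the vector library (ratio 1.76, counting interval 1.63 to 1.90), a gene with close duplicates that can share its reads. PCBP3 was at 9.41 and 5.99 FPKM, PCBP2, an iron chaperone, at 72.2 and 62.5 FPKM, and the autophagy receptor TAX1BP1 at 38.7 and 46.0 FPKM.

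The 8 genes of iron sensing had a median difference of 0.04 with 0 genes past the rule. The sign of that median turned (-0.0019) with the median ratio of the libraries set to 0. FBXL5, which marks iron regulatory protein 2 for degradation, was at 77.4 FPKM in the YWHAB library and 90.6 FPKM in the vector library. CUL1, the scaffold of its ligase, was at 32.1 and 24.3 FPKM in the same order, and CISD2, an iron-sulfur protein, at 11.0 and 14.6 FPKM. Of 10 transcripts compared that have a known iron-responsive element, 7 had a negative and 3 a positive difference, with a median of -0.24, against 0.03 for all genes. FTL, FTH1, SLC40A1, TFRC and SLC11A2 are among these transcripts, and FTL was the 1 that was 2-fold lower. The strict letters given above were found in 7 of the 11 genes listed, and not in SLC11A2, SDHD, EPAS1 or CDC42BPA. The list joins elements of 5′ and 3′ UTRs, so its median does not describe 1 kind of element. Other lists leaned either way, with 10 negative and 3 positive differences among the uptake and transfer genes and 1 and 6 among the iron chaperone and ferritin turnover genes. CDC42BPA, a kinase, was at 24.7 FPKM in the YWHAB library and 14.9 FPKM in the vector library (ratio 1.65, counting interval 1.53 to 1.79). EPAS1, which encodes the hypoxia factor HIF-2 alpha, was at 37.3 and 52.1 FPKM.

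The 23 iron-sulfur cluster genes had a median of -0.12 with 0 past the rule. CIAO2B, of the cytosolic targeting complex, was at 69.0 FPKM in the YWHAB library and 101.9 FPKM in the vector library, and its partner MMS19 at 111 and 79.6 FPKM. The ferredoxin FDX1 was at 6.75 and 10.2 FPKM, and the reductase NDOR1 at 25.5 and 17.6 FPKM. In 10 genes of heme synthesis the median was 0.07 with 0 past the rule. ALAS1, the first and rate-limiting enzyme, was at 47.5 FPKM in the YWHAB library and 67.0 FPKM in the vector library (ratio 0.709, counting interval 0.655 to 0.767), and the last enzyme, FECH, at 5.40 and 4.08 FPKM. The mitochondrial membrane protein TMEM14C was at 90.9 and 141 FPKM and the transporter ABCB10 at 17.9 and 12.6 FPKM. Among 12 genes of heme breakdown and transport the median was -0.13 with 0 past the rule. After HMOX1, biliverdin reductase BLVRB was at 61.7 FPKM in the YWHAB library and 82.0 FPKM in the vector library, FLVCR2 at 0.726 and 1.44 FPKM, and the heme-binding protein HEBP1 at 57.9 and 66.1 FPKM.

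Differences of the other genes of the NRF2 and BACH1 axis were smaller in size than those of FTL and HMOX1. Of 13 compared 0 passed the 1.5-fold rule, against 11.5% of all genes either way, and the median was -0.08. Of these 13, 10 had a negative and 3 a positive difference. The part of the axis in the FTL and HMOX1 values was not tested. NFE2L2, which encodes NRF2, was at 46.1 FPKM in the YWHAB library and 57.0 FPKM in the vector library. Its inhibitor KEAP1 was at 61.7 and 50.4 FPKM, the glutathione enzyme GCLC at 8.15 and 10.1 FPKM and thioredoxin reductase TXNRD1 at 338 and 409 FPKM. BACH1, chosen once its level was known, stood at 84.1 and 88.4 FPKM. Among 11 genes of ferroptosis, an iron-dependent death by lipid peroxidation, the median was -0.09 with 0 past the rule. The cystine transporter subunit SLC3A2 was at 135 FPKM in the YWHAB library and 184 FPKM in the vector library, GCH1 at 5.15 and 7.31 FPKM, CHAC1 at 5.89 and 8.07 FPKM, and DHODH, which protects mitochondrial lipids, at 6.79 and 4.42 FPKM.

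**Figure D4:**
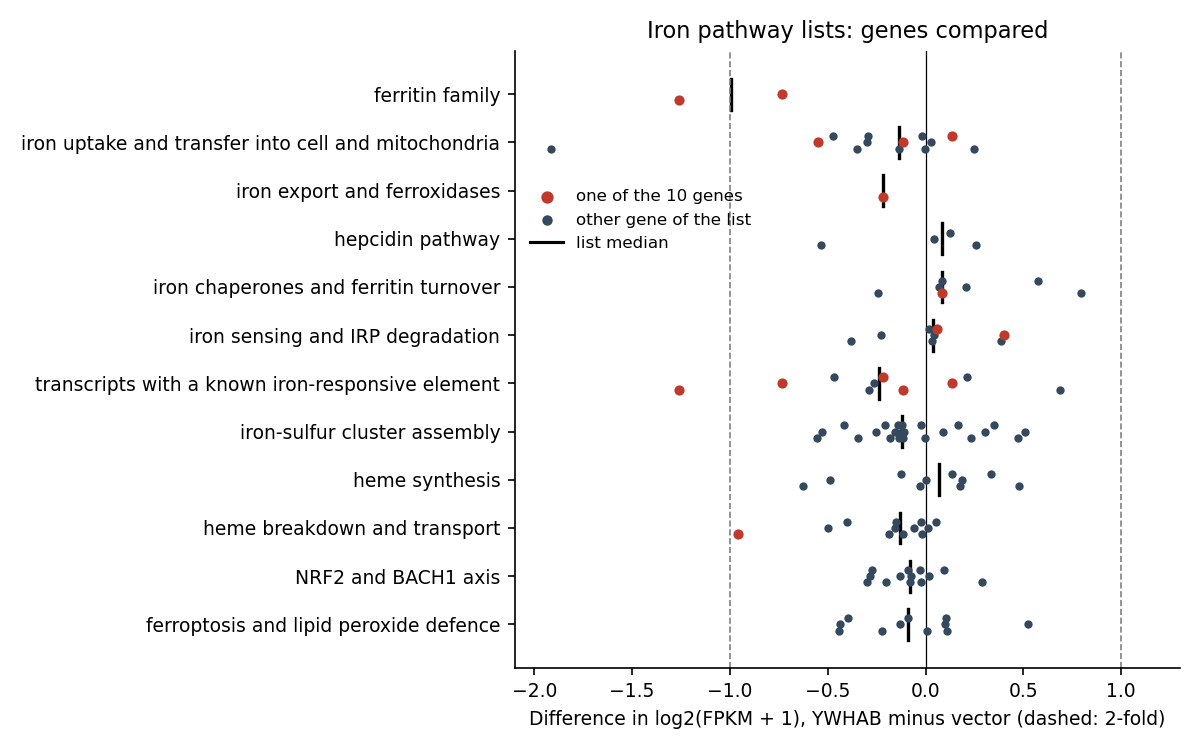
Difference in log2(FPKM + 1), YWHAB minus vector, of each compared gene in 12 iron and heme lists, with the 10 genes in red, other genes in blue and list medians as black bars; dashed lines mark 2-fold. FTL (-1.26) and LCN2 (-1.91) are the genes beyond a dashed line, and most list medians lie near 0.

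The fragment totals behind the FPKM values were 13810668 (YWHAB) and 12375999 (vector). The listed genes made up 99.9% of each, so fragments outside these genes are not known from the values. YWHAB itself was at 336 FPKM in the YWHAB library and 239 FPKM in the vector library, a ratio of 1.41 (counting interval 1.36 to 1.45). Its direction matched the label, but it did not pass the 2-fold rule. Its difference of 0.49 was just above the 90th percentile of all genes (0.45). Of the line markers given below, CD44 (0.52), AXL (0.56), ERBB2 (0.59), EGFR (0.76) and CAV1 (0.76) had larger differences. VIM (0.23) and GATA3 (0.23) had smaller ones. The degree of over-expression was not tested further. Markers set as present in the line were found. The 7 listed markers compared, among them ERBB2 and GATA3, set as absent or low, had a median difference of 0.56. Of these 7, 3 (CAV1, EGFR and ERBB2) were at least 1.5-fold higher in the YWHAB library, against 4.92% of all genes, and 0 were lower. CAV1 was at 161 FPKM in the YWHAB library and 94.2 FPKM in the vector library, EGFR at 118 and 69.5 FPKM, AXL at 668 and 453 FPKM, CD44 at 998 and 697 FPKM and VIM at 861 and 736 FPKM. The part of this shift in the iron gene values was not tested. ESR1 and PGR each had at most 7 fragments and CDH1 at most 3. ERBB2, set among the markers that should be absent or low, was at 49.97 FPKM in the YWHAB library and 32.8 FPKM in the vector library. GATA3, of the same set, was at 3.86 and 3.14 FPKM. The defining adipocyte genes ADIPOQ and LEP were listed at 0, and LPL was the 1 of 7 adipocyte markers compared, at 5.38 FPKM in the YWHAB library and 9.32 FPKM in the vector library. Of 8 retina markers and 6 macrophage markers 0 reached the filter, and their summed levels were 0.573 and 1.32 FPKM in the YWHAB library and 0.413 and 1.70 FPKM in the vector library. Of the erythroid markers the globins HBA1 and HBB were listed at 0, and of the hepatocyte markers albumin (ALB) had 3 fragments in the YWHAB library and 2 in the vector library. EPOR was the 1 erythroid marker compared, at 12.2 FPKM in the YWHAB library and 14.9 FPKM in the vector library. SERPINA1 was the 1 hepatocyte marker compared, at 34.8 and 33.9 FPKM.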

How the data were processed

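The authors deposited 1 table of FPKM values for 60774 identifiers, per the labels of both columns, with 1 column per library. Per the submitters' processing notes, HISAT2 2.0.5 and hg38 were used. The counter, annotation release, strand setting and treatment of multiple matches are not stated in the sources used here. Symbols, classes and coordinates came from GENCODE 29 (GRCh38), which held 96.3% of identifiers. Fragments were worked out from the steps of the FPKM values: the pairs of 26769 of 26770 genes above 0 were whole counts over a whole length (relative tolerance 1e-12). Where several lengths were possible (14.1% of these genes, SLC11A2 among the 10), the multiple nearest to the GENCODE 29 mean transcript length was taken, which affects interval widths and not ratios. Ratio intervals are exact (Clopper-Pearson, 95%), those for a ratio of ratios log-normal. PCR copies are not independent, so intervals cover counting error only.

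Differences are of log2(FPKM + 1), YWHAB minus vector, which shrinks the change of low genes. No scaling between libraries was added and no test was run, with 1 library per group. Scripts were run in Python 3.11.15 with scipy 1.17.1. The recovery of fragments and the 2-fold calls were checked on simulated data in which the gene lengths were given. The choice among possible lengths and the other steps were not checked in this way. The genes and lists were chosen with earlier results of these data known. Named are the 10 genes, YWHAB, and per list the members at 2-fold or the 4 with the largest differences. Alternatives were pseudocount 0.1, no filter, a minimum mean of 5 FPKM, equal totals, median ratio 0 over genes reaching 10 FPKM in both libraries, length and GC correction (10 bins each), ferritin pseudogenes added, protein-coding genes only and, chosen after seeing the data, the length of all exons.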

Additional observations from a re-analysis of the deposited data

How the results depend on the processing

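FTL was the 1 gene past the 2-fold rule under each of the 6 alternatives in which the iron genes were counted, with all 10 counted in 5 of them and 9 at a minimum mean of 5 FPKM, which SLC40A1 missed. Its difference lay between -1.30 (median ratio of the libraries at 0) and -1.22 (equal totals). The sign of ACO1 turned to -0.04 after length and GC correction, and the other 9 genes kept theirs. Counts over all genes (92 higher and 265 lower) were 222 and 471 with a pseudocount of 0.1, 155 and 349 with no filter, 40 and 112 at a minimum mean of 5 FPKM, and 34 and 167 in protein-coding genes. List medians turned sign for iron sensing with the median ratio set to 0 (-0.0019) and for the hepcidin genes after length and GC correction (-0.02). That correction also gave -0.27 for the uptake genes. No paired analysis was possible because each group had 1 library. With 49 to 145 fragments, SLC40A1 and FTH1 are limited by depth.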
